A study of Mus musculus with 17 samples.

Results

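ATP-binding cassette (ABC) exporters of drugs and organic anions were examined in RNA from mouse kidney cortex. The set was chosen by gene name and comprises Abcb1a, Abcb1b, Abcc1, Abcc2, Abcc3, Abcc4, Abcc5, Abcc6, Abcc10 and Abcg2, that is 10 of the 48795 genes in the count table, and each of them had counts in all 17 libraries. By their labels the libraries came from 5 WT, 5 GCERAd, 3 TRACK and 4 GCERAdT cortices. The study's methods give 3 to 4 mice for each cohort, so some WT and GCERAd libraries may be repeats of the same cortex. Values of n count libraries. WT is wild type. GCERAd carries Ggt/CreER TG/TG and ATF4 fl/fl, in which tamoxifen (20 mg/mL, injected on each of 2 days at 6 weeks of age) removes Atf4 from cells in which the Ggt1 promoter drives CreER, mainly proximal tubules. By the study's methods, mice entered metabolic cages a month after the first injection and were fasted for 16 h before tissue was taken. TRACK is a transgenic mouse model of kidney cancer and GCERAdT is labelled TRACK-ATF4 KO, and the age and treatment of both were not given in the sources used here. Nor do these sources say whether the WT mice received tamoxifen. Levels are given as CPM, counts relative to library size with TMM scaling over all 17 libraries, and levels of different genes were compared only as FPKM, which also divides by exon length.

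ABC exporters use ATP to move substrates out of cells. In the proximal tubule, P-glycoprotein (encoded in the mouse by Abcb1a and Abcb1b), Abcg2, Abcc2 and Abcc4 lie in the brush border and secrete drugs, urate and conjugated organic anions into the urine, whereas Abcc1, Abcc3, Abcc5 and Abcc6 are typically found in basolateral membranes and export towards the blood. Uptake carriers of the basolateral membrane deliver many of the same substrates, so that net secretion needs both steps.

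Library facts that touch the results are as follows. The library totals lay between 53688512 and 71364561 counts. Atf4 was lower in GCERAd than in WT, by 0.38 on the log2 scale (SE 0.11, edgeR adjusted p = 0.0218), at 72.9, 55.8, 57.4, 61.8 and 75.1 CPM in GCERAd against 79.6, 74.8, 81.5, 86.9 and 101 CPM in WT. In the libraries labelled GCERAdT it was not lower than in TRACK: it was 80.6, 94.2, 94.9 and 104 CPM against 93.4, 79.9 and 77.6 CPM, a log2 fold change of 0.17 (95% interval -0.07 to 0.41, adjusted p = 0.367), so that the knockout label of these libraries was not visible in the Atf4 total, which does not separate exons. All 5 WT libraries had Xist, between 147 and 422 CPM, and no count of Ddx3y, Eif2s3y or Uty (at most 3 counts each by counting error), with 18 counts of the Y-linked Kdm5d in WT 2 and 0 in the others. The other 12 libraries had Ddx3y between 49.7 and 79.9 CPM and Xist at 6.06 CPM or less. Genotype and sex therefore cannot be told apart in any comparison with WT, nor in the difference between the knockout contrasts, whereas the comparisons among GCERAd, TRACK and GCERAdT do not carry this split. GCERAd 4 and 5 deviated together from the GCERAd mean (r = 0.695 over genes) and against GCERAd 1, 2 and 3 (r between -0.744 and -0.357). Libraries also fell into kind A, with 0.038% of counts or less on processed pseudogenes (WT 1, 3, 4 and 5, GCERAd 1 and 2, GCERAdT 1 and 2), and kind B, with 0.0574% or more (WT 2, GCERAd 3, 4 and 5, all TRACK, GCERAdT 3 and 4).

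Per exon length, the cortex held mainly the brush border exporters. In WT the order of mean FPKM was Abcg2 (42.0 ± 1.61, SD, n = 5), Abcc2 (33.0 ± 6.86), Abcc4 (21.3 ± 4.67), Abcc3 (15.1 ± 6.68), Abcb1b (7.53 ± 1.06), Abcc5 (2.62 ± 0.303), Abcb1a (2.56 ± 0.212), Abcc1 (1.86 ± 0.278), Abcc10 (1.45 ± 0.242) and Abcc6 (1.25 ± 0.273). The ranges of neighbours in this order did not overlap at 2 steps, from Abcb1b to Abcc5 and from Abcb1a to Abcc1; all other neighbours overlapped. In GCERAd the order began with Abcg2 (57.9 ± 8.33 FPKM, n = 5) and Abcc2 (52.1 ± 3.11), whose ranges overlapped, followed without overlap by Abcc4 (10.2 ± 3.80), and it ended with Abcc3 (0.470 ± 0.142). Abcg2 and Abcc2 together made up 53.4% to 61.8% of the summed FPKM of the 10 genes in WT, 82.6% to 86.0% in GCERAd, 76.3% to 78.9% in TRACK and 72.9% to 79.2% in GCERAdT. These shares did not overlap between WT and the other groups, while the sum itself was 121 to 135.5 FPKM in WT, 117 to 152 FPKM in GCERAd, 104 to 110.1 FPKM in TRACK and 105.5 to 121 FPKM in GCERAdT. The TRACK sums lay wholly below those of WT.

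**Figure D1:**
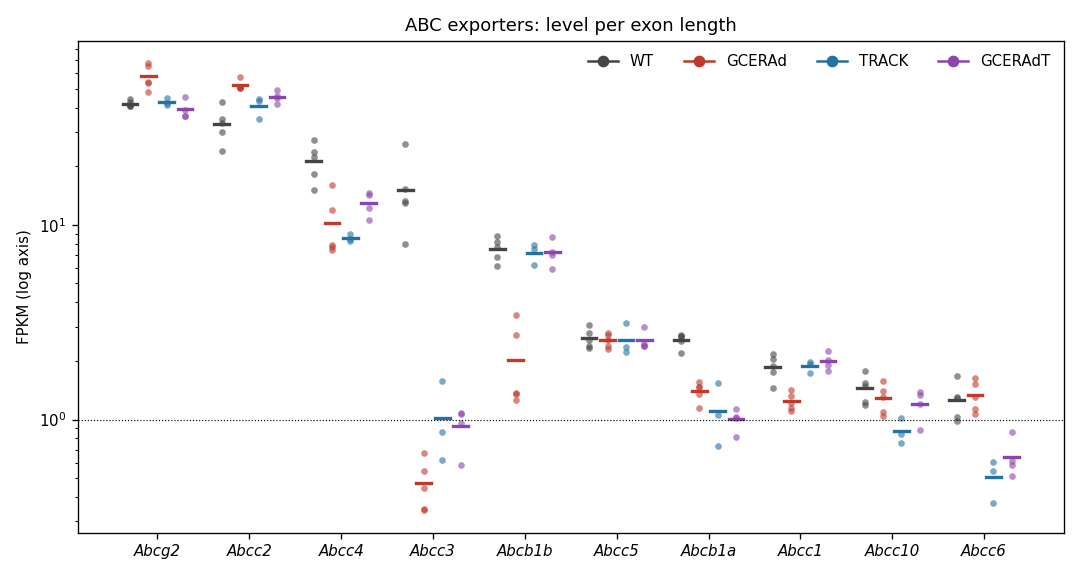
FPKM on a log axis for the 10 exporters in order of their WT mean, with 1 point per library, a bar at each group mean and a dotted line at 1 FPKM, the minimum for testing. Abcg2 and Abcc2 lie at the top in all 4 groups, and Abcc3 drops from 15.1 FPKM in WT to 1.02 FPKM or less in the mean of each other group.

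The first comparison of the design sets GCERAd, with Atf4 deleted in proximal tubules, against WT. These groups also differ in sex, so a change between them cannot be assigned to the deletion. In GCERAd over WT, 7 of the 10 exporters passed the threshold of 0.05 for the adjusted p of edgeR's quasi-likelihood test, against 27.6% of the 11581 genes tested. Abcc2 and Abcg2 rose (14.1% of all genes rose), and Abcc3, Abcb1b, Abcc4, Abcb1a and Abcc1 fell (13.5% of all genes fell). Abcc5, Abcc6 and Abcc10 did not pass. The median log2 fold change of the 10 was -0.36, beside 0 over all genes tested. GCERAdT over TRACK is by label the same deletion within the cancer model, but Atf4 was not lower there. In it, 1 of 9 exporters tested changed, beside 7.09% of 11928 genes: Abcc4 rose (2.81% of all genes rose and 4.28% fell). The median of the 9 was 0.01, the same as over all genes.

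**Figure D2:**
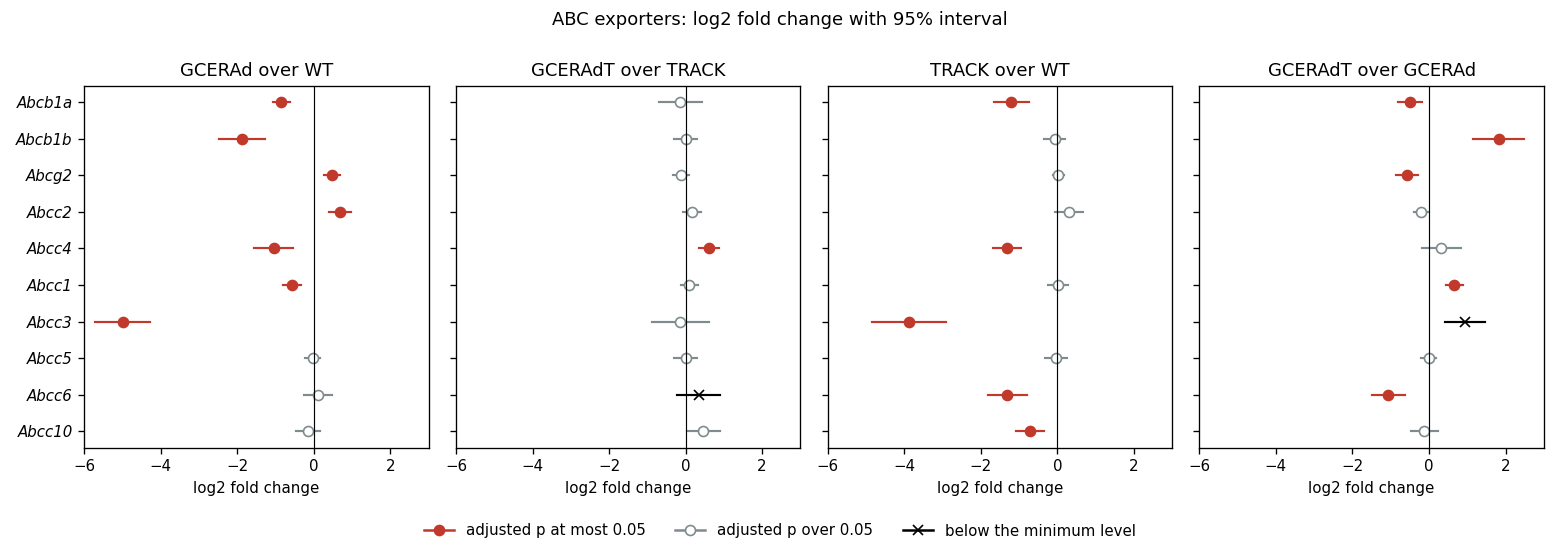
Log2 fold change of each exporter with its 95% interval in the 4 comparisons. Filled points passed an adjusted p of 0.05, open points did not, and crosses mark genes below the level for testing; Abcb1b stands at -1.88 in GCERAd over WT, at 0.01 in GCERAdT over TRACK, at -0.06 in TRACK over WT and at 1.82 in GCERAdT over GCERAd.

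Abcb1b encodes a P-glycoprotein, an exporter of hydrophobic drugs with broad specificity, and its level singled out the GCERAd libraries. The gene lies at chr5:8798147-8866315 on the plus strand (GRCm38). Its counts were 70.1, 61.8, 49.1, 54.5 and 65.4 CPM in WT and 10.9, 10.1, 10.8, 21.8 and 27.4 CPM in GCERAd. In TRACK it was 63.4, 59.8 and 49.7 CPM, and in GCERAdT 69.2, 58.1, 55.9 and 47.4 CPM. The 5 GCERAd libraries lay below all 12 others without overlap, with GCERAd 4 and 5 above GCERAd 1 to 3, and the WT, TRACK and GCERAdT ranges overlapped. Abcb1b fell by 1.88 on the log2 scale in GCERAd over WT (SE 0.28, adjusted p = 0.000508), a 3.68-fold lower level, and with GCERAd 1 to 3 only it fell by 2.49 (adjusted p = 3.25e-07). Against GCERAd, which shares the Y-linked transcripts and the labelled deletion, the libraries labelled GCERAdT were 3.53-fold higher (log2 1.82, SE 0.30, adjusted p = 0.00247). The intervals around GCERAdT over TRACK (-0.29 to 0.31) and TRACK over WT (-0.34 to 0.21) both held 0.

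For Abcb1b, Abcg2, Abcc2 and Abcc1 the GCERAd libraries lay outside the range of all others, by small gaps for Abcc2 and Abcc1. How many of all genes do the same was not counted. The sequence before the Abcb1b start site is shown because Abcb1b changed most among these. That before Abcc4 is shown because Abcc4 changed in both knockout contrasts, in opposite directions. Of the 10 exporters, 7 matched a symbol in the RefSeq promoter table (GRCm38.p6), with 11 windows in all. The 250 bases before each start were searched on both strands for TGATGNAA (the core of the CARE element that ATF4 dimers bind), TGACGTCA (the CRE), TGACNNNGC (the core of the antioxidant response element) and CCAAT, and capitals mark every match. The first sequence is chr5:8797897-8798146 on the plus strand and the second chr14:118706220-118706469 on the minus strand, and both windows end 1 base before the start of the gene model used for counting lengths.
Abcb1b: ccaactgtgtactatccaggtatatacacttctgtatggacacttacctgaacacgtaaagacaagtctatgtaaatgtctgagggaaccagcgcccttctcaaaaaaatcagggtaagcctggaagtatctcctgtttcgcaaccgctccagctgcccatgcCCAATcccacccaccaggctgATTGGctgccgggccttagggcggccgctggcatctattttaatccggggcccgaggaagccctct
Abcc4: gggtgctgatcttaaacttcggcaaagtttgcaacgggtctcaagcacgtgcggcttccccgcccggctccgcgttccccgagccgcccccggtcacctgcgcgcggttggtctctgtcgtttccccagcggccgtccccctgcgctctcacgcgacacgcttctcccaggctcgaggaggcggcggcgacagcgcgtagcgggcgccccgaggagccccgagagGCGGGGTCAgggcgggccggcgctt
Abcb1b held 2 CCAAT matches, beginning 87 and 66 bases before the start, the second on the opposite strand, and 33.9% of all 32851 windows of this length held at least 1. Abcc4 held 1 match to TGACNNNGC, on the opposite strand and beginning 25 bases before the start, against 10.2% of windows. TGATGNAA was found in 0 of the 11 windows of the exporters and in 3.45% of all windows. The CRE letters were found in 1 of the 3 windows of Abcg2 and in 1.55% of all windows. Not all windows lie at the start of the gene model used for lengths. The start site of this Abcg2 window is 56023 bases from it. For the only window of Abcb1a the distance is 92986 bases, and for the other window of Abcc4 it is 29288 bases. Abcc2, not shown, held 1 match to TGACNNNGC and 2 to CCAAT. A match to TGACNNNGC was also found in 1 window of Abcc10 and in the other window of Abcc4.

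Abcb1a encodes the other mouse P-glycoprotein and had its highest levels in WT. It was 14.6, 13.9, 12.0, 14.8 and 14.7 CPM in WT and 6.31, 7.40, 8.00, 8.57 and 8.01 CPM in GCERAd. It was 5.80, 3.99 and 8.42 CPM in TRACK and 5.67, 4.45, 5.60 and 6.23 CPM in GCERAdT. WT did not overlap with any other group, and TRACK overlapped with both deletion groups. Abcb1a fell by 0.86 in GCERAd over WT (SE 0.10, adjusted p = 0.000128) and by 1.20 in TRACK over WT (SE 0.21, adjusted p = 0.00117). Abcb1a also fell in GCERAdT over GCERAd, by 0.50 (SE 0.14, adjusted p = 0.0309), a call that was lost on leaving out any of GCERAd 2, 3, 4 or 5 or GCERAdT 1, 2 or 3 (highest adjusted p = 0.0898, without GCERAdT 2) and with GCERAd 1 to 3 only (log2 -0.40, adjusted p = 0.0952). The ratio of Abcb1b to Abcb1a, in FPKM, was 2.52 to 3.29 in WT, 0.925 to 2.35 in GCERAd, 4.05 to 10.3 in TRACK and 5.22 to 8.95 in GCERAdT. GCERAd lay below WT and both cancer model groups lay above WT, without overlap. Of the stretches of 51 bases in the transcripts, the read length in the study's methods, 16.1% of those of Abcb1a and 10.9% of those of Abcb1b occur in the other gene. How the counting treated read pairs in these stretches was not given, so a part of the counts could belong to the other gene. The yields in the study's supplement give more bases per cluster for some samples, so reads may have been longer in some libraries. Also, 553 exon bases of Abcb1a and 143 of Abcb1b overlap genes of the opposite strand, Gm42686 and Gm5106, and the strand setting of the counting was not given.

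Abcg2, which exports urate and sulphated conjugates at the brush border, had its highest levels in GCERAd. Its level was 348, 363, 332, 335 and 334 CPM in WT and 395, 436, 444, 554 and 532 CPM in GCERAd. It was 343, 337 and 365 CPM in TRACK and 319, 297, 297 and 369 CPM in GCERAdT. All 5 GCERAd libraries lay above the 12 others, the nearest being 369 CPM in GCERAdT 4. Abcg2 rose 1.40-fold in GCERAd over WT (log2 0.48, SE 0.10, adjusted p = 0.0036) and fell by 0.58 in GCERAdT over GCERAd (SE 0.12, adjusted p = 0.00906). With GCERAd 1 to 3 only the values were 0.33 (adjusted p = 0.00469) and -0.40 (adjusted p = 0.0135). The interval of TRACK over WT was -0.11 to 0.17 and that of GCERAdT over TRACK was -0.33 to 0.10.

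Abcc2, which secretes glutathione and glucuronide conjugates into the urine, rose 1.59-fold in GCERAd over WT (log2 0.67, SE 0.13, adjusted p = 0.00286). It was 287, 255, 204, 363 and 299 CPM in WT, 434, 431, 430, 492 and 436 CPM in GCERAd, 378, 369 and 297 CPM in TRACK, and 420, 383, 358 and 394 CPM in GCERAdT. GCERAd lay above every other library, by a small gap to GCERAdT 1, and the other groups overlapped with each other. The remaining comparisons did not pass, with intervals of -0.05 to 0.66 for TRACK over WT, -0.07 to 0.40 for GCERAdT over TRACK and -0.39 to -0.03 for GCERAdT over GCERAd (adjusted p = 0.0993). TRACK over WT passed without WT 4, at 0.42 (adjusted p = 0.0396).

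Abcc4 exports cyclic nucleotides, urate and organic anions across the brush border, and it was the only exporter that passed in both knockout contrasts. It was 142, 117, 97.1, 174 and 151 CPM in WT and 50.2, 49.2, 47.5, 103 and 76.6 CPM in GCERAd. It was 54.1, 52.7 and 57.2 CPM in TRACK and 93.4, 90.6, 77.8 and 68.0 CPM in GCERAdT. GCERAd overlapped with WT only through GCERAd 4, TRACK lay below all WT libraries, and all 4 GCERAdT libraries lay above TRACK. Abcc4 fell by 1.05 in GCERAd over WT (SE 0.23, adjusted p = 0.00606) and by 1.32 in TRACK over WT (SE 0.17, adjusted p = 0.00022). It rose by 0.60 in GCERAdT over TRACK (SE 0.12, 95% interval 0.34 to 0.87, adjusted p = 0.0168), where Atf4 did not differ in the direction of the label. That call was lost without TRACK 1 (adjusted p = 0.0691), without TRACK 2 (0.0827), without GCERAdT 2 (0.0559), among libraries of kind B (log2 0.42, adjusted p = 0.089) and with the spread estimated from all 17 libraries (log2 0.59, adjusted p = 0.151). GCERAdT over GCERAd gave 0.32 (95% interval -0.19 to 0.83, adjusted p = 0.372) with all libraries, 0.56 (adjusted p = 0.0473) without GCERAd 4 and 0.76 (adjusted p = 0.00106) with GCERAd 1 to 3 only. It was 0.89 among libraries of kind A and -0.07 among those of kind B.

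**Figure D3:**
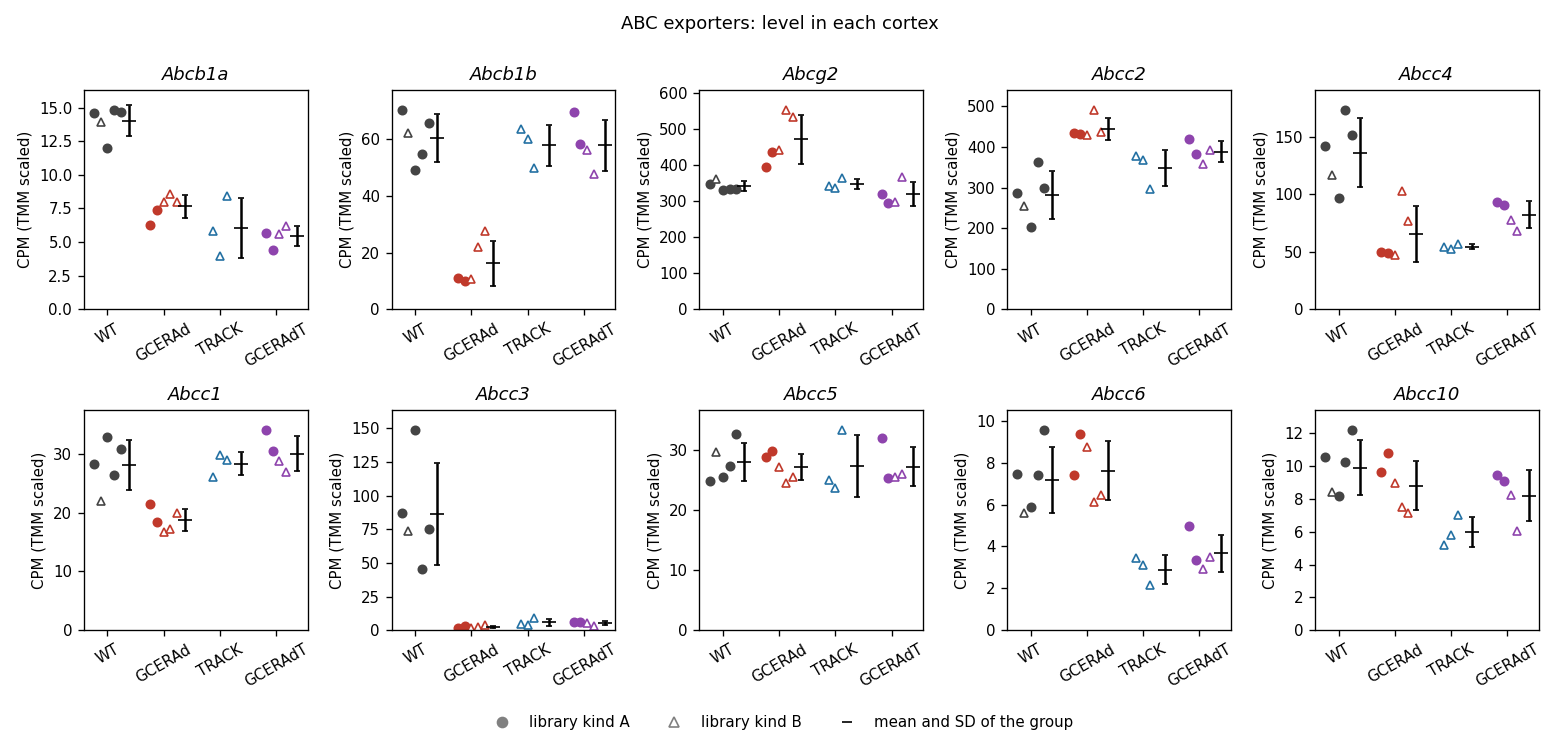
CPM of the 10 exporters in each library, with filled circles for library kind A, open triangles for kind B, and the mean and SD of each group beside its points; each vertical axis starts at 0. GCERAd is set apart from all other libraries for Abcb1b, Abcg2 and, by small gaps, Abcc2 and Abcc1. WT is set apart for Abcb1a and Abcc3, and Abcc5 lies between 23.7 and 33.3 CPM throughout.

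Among the exporters of the basolateral membrane, Abcc3 showed the widest range. Abcc3, an exporter of glucuronides and bile acids, was 87.3, 74.0, 148.5, 45.6 and 75.6 CPM in WT and 1.97, 3.10, 1.95, 2.53 and 3.85 CPM in GCERAd. It was 4.93, 3.55 and 8.98 CPM in TRACK and 6.16, 6.09, 5.45 and 3.31 CPM in GCERAdT. WT was above all other libraries by a wide gap, and WT 3 and WT 4 set the ends of its own range. Abcc3 fell by 4.99 in GCERAd over WT (SE 0.33, adjusted p = 1.42e-06), a 31.8-fold lower level, and by 3.88 in TRACK over WT (SE 0.43, adjusted p = 9.44e-05), 14.7-fold lower. It passed the minimum of 1 FPKM in the first of these through WT alone. Abcc3 was below the minimum in GCERAdT over GCERAd, where the fit of all genes with a count gave 0.94 (SE 0.25, adjusted p = 0.0293), and in GCERAdT over TRACK it was -0.14 (95% interval -0.88 to 0.60). All groups low in Abcc3 were those with Y-linked transcripts.

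Abcc1, which exports glutathione conjugates and leukotriene C4, was 28.3, 22.0, 32.9, 26.5 and 30.8 CPM in WT and 21.4, 18.3, 16.8, 17.3 and 20.02 CPM in GCERAd. It was 26.1, 29.8 and 29.0 CPM in TRACK and 34.0, 30.5, 28.8 and 26.9 CPM in GCERAdT. As for Abcb1b, the GCERAd libraries lay below all others, by a small gap to WT 2. Abcc1 fell by 0.57 in GCERAd over WT (SE 0.11, adjusted p = 0.00274) and rose by 0.66 in GCERAdT over GCERAd (SE 0.10, adjusted p = 0.00138). The interval was -0.25 to 0.28 in TRACK over WT and -0.13 to 0.32 in GCERAdT over TRACK.

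Abcc6, whose loss causes ectopic calcification, was a low-level transcript that split by the cancer model. It was 7.44, 5.61, 5.89, 7.39 and 9.54 CPM in WT and 7.43, 9.38, 8.73, 6.14 and 6.45 CPM in GCERAd, which overlapped (log2 0.10, 95% interval -0.27 to 0.47). It was 3.44, 3.11 and 2.14 CPM in TRACK and 4.96, 3.36, 2.92 and 3.5 CPM in GCERAdT, below every WT and GCERAd library. Abcc6 fell by 1.31 in TRACK over WT (SE 0.23, adjusted p = 0.00131) and by 1.06 in GCERAdT over GCERAd (SE 0.19, adjusted p = 0.00398). It was below the minimum in GCERAdT over TRACK, with 0.34 (95% interval -0.23 to 0.91) in the fit of all genes.

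Abcc10, an exporter of lipophilic anions and drugs, was 10.6, 8.40, 8.18, 10.2 and 12.2 CPM in WT, 9.64, 10.8, 8.99, 7.49 and 7.17 CPM in GCERAd, 5.21, 5.78 and 7.02 CPM in TRACK, and 9.46, 9.11, 8.22 and 6.06 CPM in GCERAdT. TRACK lay below WT without overlap and overlapped with GCERAdT. Abcc10 fell by 0.72 in TRACK over WT (SE 0.17, adjusted p = 0.00571), and the value in GCERAdT over TRACK was 0.46 (SE 0.19, adjusted p = 0.171). The gene shares 51 exon bases with Dlk2 on the other strand. Abcc5, an exporter of cyclic nucleotides, was between 24.9 and 32.8 CPM in WT, 24.6 and 29.8 in GCERAd, 23.7 and 33.3 in TRACK, and 25.4 and 32.0 in GCERAdT. Its group means of log2 CPM spanned 0.04, and the widest 95% intervals, in GCERAdT over TRACK and TRACK over WT, reached from -0.31 to 0.31 and from -0.32 to 0.25.

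TRACK over WT compares the cancer model with wild type. Here 5 of the 10 exporters changed, beside 45.6% of 11967 genes, a share near this background. All 5 fell (22.6% of all genes fell): Abcc3, Abcc4, Abcc6, Abcb1a and Abcc10. Abcc6 and Abcc10 passed the minimum of 1 FPKM through WT alone, so their fall is not independent of it. With the minimum set on the mean over all 8 libraries, 4 exporters were called and Abcc6 was not tested. Between GCERAdT and GCERAd, 5 of 9 exporters tested changed, beside 19.2% of 11816 genes. Abcb1b and Abcc1 rose (9.39% of all genes rose), and Abcc6, which passed the minimum through GCERAd alone, Abcg2 and Abcb1a fell (9.79% of all genes fell). With the mouse number as a block, 3770 genes were called in place of 2266, and the number of exporters stayed at 5. Same-numbered libraries deviated together in this comparison, but they come from mice of different genotypes and their numbers coincide with library kind.

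The difference between the knockout contrasts, (GCERAdT over TRACK) minus (GCERAd over WT), was tested with all 17 libraries. It passed for 6 of the 10 exporters, beside 25.1% of 12208 genes. The difference was 4.86 for Abcc3 (SE 0.51, adjusted p = 4.42e-06), 1.90 for Abcb1b (SE 0.37, adjusted p = 0.00165) and 1.66 for Abcc4 (SE 0.32, adjusted p = 0.00139). It was 0.73 for Abcb1a (SE 0.25, adjusted p = 0.0391) and 0.67 for Abcc1 (SE 0.16, adjusted p = 0.00647). All 5 were positive, in the direction of 12.3% of all genes. The difference was -0.59 for Abcg2 (SE 0.14, adjusted p = 0.00635), in the direction of 12.8% of all genes. A positive difference is not a rise in the cancer model. In GCERAdT over TRACK, Abcb1a (-0.14), Abcb1b (0.01), Abcc1 (0.09) and Abcc3 (-0.14) did not pass, so their differences mostly restate the fall in GCERAd over WT. Abcc2 (-0.50, adjusted p = 0.0553) and Abcc10 (0.62, adjusted p = 0.0689) missed the threshold. Abcc2 passed with DESeq2 (adjusted p = 0.0236), with RLE scaling (0.0479), without WT 4 (0.0126) and without TRACK 3 (0.0291), and Abcc10 passed without GCERAd 2 (0.0414) and without GCERAdT 4 (0.0249). The call of Abcb1a was lost on leaving out any of WT 1, 4 or 5, GCERAd 1 or 2, TRACK 1 or 2, or GCERAdT 1, 3 or 4 (highest adjusted p = 0.109, without TRACK 2), with no minimum level (0.069) and with possible repeat libraries summed (0.0659). Because WT enters this test, it carries the sex split, and GCERAdT enters it with an Atf4 level not lower than in TRACK.

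Within library kinds the direction of the 7 changes in GCERAd over WT was the same as with all libraries. In kind A (4 WT and 2 GCERAd) all 7 passed, beside 3183 of 11605 genes, with Abcb1b at -2.50 and Abcc4 at -1.5. In kind B (1 WT and 3 GCERAd) WT has no spread of its own, so only sizes are given here. Abcc3 was at -4.72, Abcb1b at -1.61 and Abcc4 at -0.62. Abcb1b in GCERAdT over GCERAd was 2.61 in kind A (2 against 2, adjusted p = 2.2e-07) and 1.35 in kind B (2 against 3, adjusted p = 0.0914). GCERAdT over TRACK and TRACK over WT could be compared within kind B only, since all TRACK libraries were of kind B. In TRACK over WT this left WT 2 as the only WT library, with Abcb1a at -1.19 and Abcc10 at -0.48.

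**Figure D4:**
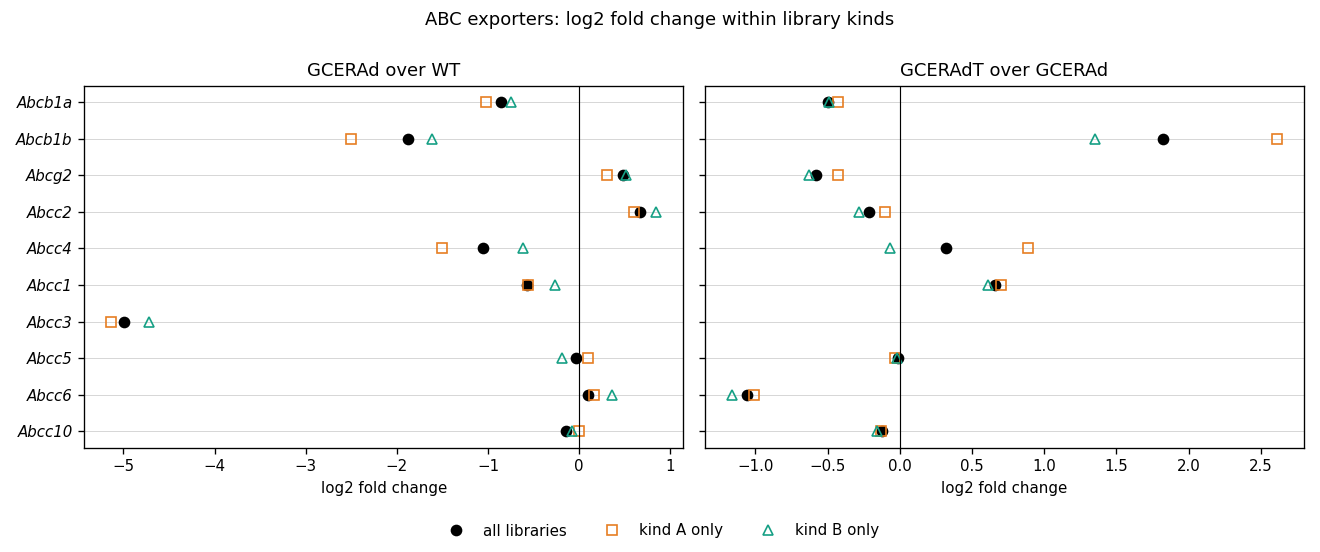
Log2 fold change of each exporter in GCERAd over WT and in GCERAdT over GCERAd, with all libraries (filled circles), libraries of kind A (squares) and libraries of kind B (triangles); the horizontal scales differ between the panels, and the second panel has no point for Abcc3, which was below the level for testing. Abcc4 in GCERAdT over GCERAd moves from 0.89 in kind A to -0.07 in kind B.

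Markers of other cell types differed between the same groups, and in cortex RNA fewer cells of a type and less RNA per cell cannot be told apart. In GCERAd over WT (13.5% of all genes fell and 14.1% rose), 5 of 7 collecting duct markers fell, with sums of 463 to 721 CPM against 1034 to 1186 CPM in WT. Of the thick limb and distal tubule markers, 4 of 6 fell, with sums of 4134 to 5173 CPM against 6285 to 8587 CPM, and all 5 stroma markers tested rose. Of the 8 proximal tubule markers 1 rose, with sums of 11430 to 15380 CPM against 10430 to 12310 CPM. Of the 8 endothelium markers 1 rose. In TRACK over WT (22.6% of all genes fell and 23% rose), 5 of 8 proximal tubule markers fell (7114 to 8437 CPM in TRACK). There 6 of 7 collecting duct markers fell (597 to 665 CPM), as did 5 of 6 thick limb and distal tubule markers (3979 to 6677 CPM). Of the stroma markers tested, 4 of 5 rose (165 to 318 CPM against 93.7 to 111 CPM in WT). Of the endothelium markers, 7 of 8 rose (907 to 1049 CPM against 543 to 617 CPM in WT). In GCERAdT over GCERAd (9.79% of all genes fell and 9.39% rose), 4 of 8 proximal tubule markers fell (7275 to 8347 CPM in GCERAdT). There 6 of 8 endothelium markers rose (693 to 797 CPM against 470 to 650 CPM). In GCERAdT over TRACK (4.28% of all genes fell and 2.81% rose), 2 of 6 thick limb and distal tubule markers rose and 2 of 8 endothelium markers fell. Also lower there were 1 of 8 proximal tubule, 1 of 5 stroma, 1 of 4 podocyte and 2 of 2 adipocyte markers tested. All markers of these lists, except the adipocyte list, had counts in every group. The part of these markers in the changes of the exporters was not tested.

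Genes related by function were counted in the same tests. Of 24 other ABC genes tested in GCERAd over WT, 5 rose and 3 fell, which is near the share of all genes (27.6%). The largest rises were Abca8a (log2 1.15), Abcc9 (0.85), a subunit of potassium channels, and Abca9 (0.83), and those that fell were Abca4 (-1.12), Abcb9 (-0.45) and Abca7 (-0.33). In GCERAdT over TRACK 4 of 24 passed (7.09% of all genes did), all of them lower, led by the cholesterol exporter Abcg1 (-0.96) and the chloride channel Cftr (-0.46). In TRACK over WT 13 of 25 passed, near the 45.6% of all genes, of which 8 rose, led by Abca8a (1.29) and Abca9 (0.94), and 5 fell, led by Abca4 (-0.77) and Abcb9 (-0.67). Between GCERAdT and GCERAd 3 of 23 passed (19.2% of all genes did), all of them lower, led by Abcc9 (-0.54) and Abcb10 (-0.33). In the difference between the knockout contrasts 1 of 25 was higher, Abca4 (1.56; 12.3% of all genes were), and 9 were lower (12.8% of all genes were), led by Abca8a (-1.49) and Abcg1 (-1.09). Some of these genes passed the minimum of 1 FPKM only through the group where they were high, so their changes are not independent of it. Abca4 passed only through WT (1.19 FPKM) and Abcg1 only through TRACK (1.04 FPKM). Abca9 was below the minimum in WT (0.948 FPKM).

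Of the solute exporters outside the ABC family, 5 of 7 were tested, and all 5 changed in GCERAd over WT, 4 higher and 1 lower, beside 14.1% and 13.5% of all genes. The urate and phosphate carriers Slc17a3 (1.77) and Slc17a1 (0.88) rose, as did Slc51a (1.28), a subunit of the basolateral transporter of bile acids and steroids, whose partner Slc51b fell (-0.66). Slc51a fell in GCERAdT over TRACK (-1.14, the only 1 of 5 called, beside 7.09% of all genes) and in GCERAdT over GCERAd (-1.64), where 3 of 5 fell (9.79% of all genes fell), Slc17a3 (-0.87) among them. In TRACK over WT, Slc51a (0.79) and Slc17a1 (0.72) rose and Slc51b fell (-0.89), so that 3 of 5 passed beside 45.6% of all genes. The difference between the knockout contrasts was -2.41 for Slc51a, -1.26 for Slc17a3 and 0.75 for Slc51b, the only 1 that was higher. All 5 passed there, beside 25.1% of all genes.

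Among 12 transcription factors known to bind drug transporter genes, 11 were tested in GCERAd over WT. Here 3 of 11 rose, beside 14.1% of all genes: Esr1 (1.5), the oestrogen receptor, Nr1h4 (0.93), the bile acid receptor, and Rxra (0.51), its partner. The only 1 that fell was Atf4, which is deleted by design in GCERAd. Esr1 passed the minimum of 1 FPKM through GCERAd alone (1.35 FPKM, against 0.481 FPKM in WT), so its rise is not independent of it. In GCERAdT over TRACK, 2 of 10 passed (7.09% of all genes did), Nr1h4 (-0.58) and Rxra (-0.46), both lower. In TRACK over WT 6 of 10 passed (45.6% of all genes did): 4 rose, led by Nr1h4 (1.51) and Ppara (0.68), and Nr1i2 (-0.40) and Hnf4a (-0.26) fell. In GCERAdT over GCERAd, 3 of 11 fell (9.79% of all genes fell), led by Esr1 (-1.01) and Hnf4a (-0.46). Esr1 passed the minimum through GCERAd alone here and in the difference between the knockout contrasts. Ahr (0.50) rose, as did Atf4 (0.52), the gene that the labels give as deleted (9.39% of all genes rose). In the difference between the knockout contrasts 4 of 11 were lower, led by Esr1 (-1.69) and Nr1h4 (-1.5), beside 12.8% of all genes. The only 1 that was higher was the deleted gene Atf4 (0.55). Of the 6 apical scaffold proteins, which tether exporters to the brush border, Pdzk1 (0.44) and Rdx (0.20) rose and Slc9a3r2 (-0.33) fell in GCERAd over WT (27.6% of all genes passed). Slc9a3r2 was the only 1 of 6 to pass in GCERAdT over TRACK (-0.62; 7.09% of all genes passed) and rose in TRACK over WT (0.28), where Slc9a3r1 fell (-0.49) and 45.6% of all genes passed. Relative to GCERAd, 3 of 6 fell in GCERAdT (9.79% of all genes fell), led by Slc9a3r1 (-0.77) and Pdzk1 (-0.63), and in the difference between the contrasts Pdzk1 (-0.59) and Rdx (-0.36) were lower (12.8% of all genes were).

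The genes most like the exporters of widest span were found by Pearson's r of log2 CPM over the 17 libraries, given as a description, since the libraries of a group share a genotype. For Abcc3 they were Wfdc2 (r = 0.988), Kcnk1 (0.974), Elovl6 (0.972), Il17re (0.970) and Hsd17b14 (0.967). Wfdc2 averaged 187 CPM in WT and 68.4 CPM in GCERAd, and Hsd17b14, an enzyme of steroid metabolism, averaged 34.7 CPM in WT and between 3.01 and 5.14 CPM elsewhere. For Abcb1b they were Mpzl2 (0.958), Tlk2 (0.944), Sfxn3 (0.942), Capg (0.939) and Ly6f (0.936). Capg, an actin capping protein, averaged 65.4 CPM in WT, 14.2 in GCERAd, 67.7 in TRACK and 42.4 in GCERAdT. Among the exporters themselves r over the 17 libraries was 0.82 for Abcb1b with Abcc1, -0.69 for Abcb1b with Abcg2 and -0.86 for Abcc1 with Abcg2. For deviations from the group means these were 0.05, 0.60 and -0.37, so that the first 2 relations over all libraries were relations between groups.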

How the data were processed

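RNA from kidney cortices was sequenced after TruSeq Stranded mRNA preparation. The authors deposited raw read counts per gene for 17 samples, made per the labels with bcl2fastq 2.20, cutadapt, STAR and HTSeq on GRCm38. The annotation release, strand setting and handling of reads with several matches were not given in the sources used here. Groups came from the sample titles. WT 1 and 2, and GCERAd 2 and 3, may be repeat libraries. Each of these pairs correlated best (r = 0.986) among the pairs of its group that join both library kinds. The study's supplement lists 2 of its sample names also with an added letter a, and does not give their groups. Its methods speak of fewer mice per cohort than there are WT or GCERAd libraries. Whether the pairs are repeats was not settled. Each library was counted, summing the pairs was an alternative, and p-values measure the spread between libraries, which may be technical.

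Counts were tested with edgeR 4.0.16 (quasi-likelihood, TMM) in R 4.3.3 over genes whose group mean reached 1 FPKM in either group compared, with Benjamini-Hochberg adjustment over all of them. For members below this, a fit without the minimum was used. SE is the log2 fold change divided by the square root of F. Exon lengths came from GENCODE M21 (48435 of 48795 identifiers). Limits of 3 counts cover counting error only. Same-numbered libraries of GCERAd and GCERAdT deviated together (r = 0.427, 0.556, 0.518 and 0.393), and the numbers also coincide with library kind. Whether the shared deviations follow the number or the kind was not tested. Alternatives were DESeq2 1.42.0, RLE scaling, other minimums, all 17 libraries in 1 fit, a replicate block, library kind, summed repeats and left-out libraries. Fits within kinds and without GCERAd 4 and 5 were added after seeing the data. The procedure was tested on simulated data. The members and lists were chosen with earlier results of these data known. Genes named are the 10 members, the called genes of largest change in each related list (3 each way in GCERAd over WT, 2 elsewhere), and the 5 most similar to the 2 members of widest span, with Atf4 and sex-linked genes as checks.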

Additional observations from a re-analysis of the deposited data

Results flagged for a closer look

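The change in GCERAd over WT differed from that in GCERAdT over TRACK for 6 exporters in the test of the difference itself (edgeR, all 17 libraries). The difference on the log2 scale was 0.73 for Abcb1a (adjusted p = 0.0391), 1.90 for Abcb1b (adjusted p = 0.00165), 0.67 for Abcc1 (adjusted p = 0.00647), 4.86 for Abcc3 (adjusted p = 4.42e-06), 1.66 for Abcc4 (adjusted p = 0.00139) and -0.59 for Abcg2 (adjusted p = 0.00635). In GCERAdT over GCERAd, which leaves out WT, Abcb1b (1.82), Abcc1 (0.66) and Abcg2 (-0.58) also passed, and Abcc4 (0.32) did not. Abcb1a passed there in the opposite direction (-0.50, adjusted p = 0.0309), and Abcc3 was below the level for testing. Both calls of Abcb1a were lost on leaving out some single libraries. The test of the difference includes WT and so carries the sex split.

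Single libraries lay far from the rest of their group in 2 of 30 sets of values, where chance would give about 1.5. Abcc2 was 491.8 CPM in GCERAd 4 and between 429.5 and 436.3 CPM in the other GCERAd libraries. Abcc5 was 32.02 CPM in GCERAdT 1 and between 25.35 and 26.06 CPM in the other GCERAdT libraries.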

How the results depend on the processing

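No exporter called with all libraries changed direction under any alternative run; the 33 reversals were of exporters that did not pass, none larger than 0.18 on the log2 scale. Of 1101 values recomputed, 991 kept their direction and side of the threshold, or for counts stayed within 1.5 times. The causes of the changes below were not tested, but fits with fewer libraries have fewer degrees of freedom.

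Genes called in GCERAd over WT numbered 2106 with the replicate block and 98 in kind B, with 1 exporter called there. In GCERAdT over TRACK they numbered 1562 with DESeq2, 379 to 1424 without single libraries (lowest without GCERAdT 2) and 221 in kind B, and the exporters called by edgeR numbered 0 in kind B (1 at an unadjusted p under 0.05), 0 with all 17 libraries in 1 fit (2 unadjusted) and 0 to 1 without single libraries; DESeq2 on all TRACK and GCERAdT libraries called 1. In TRACK over WT 3431 genes were called with the block and 1475 in kind B, with 2 exporters. In GCERAdT over GCERAd 3770 genes were called with the block, 1427 to 2336 without single libraries (lowest without GCERAdT 2) and 349 in kind B, with 0 exporters (5 at an unadjusted p under 0.05), while DESeq2 with all libraries called 6, Abcc2 (-0.20, adjusted p = 0.0472) among them. The block changed the call of Abcc2 (0.49, adjusted p = 0.0116) and of Abcc10 (-0.59, adjusted p = 0.0643) in TRACK over WT and of Abcc2 in the difference between contrasts (-0.58, adjusted p = 0.0144), and no other call of an exporter. Only in GCERAdT over GCERAd did same-numbered libraries deviate together, and there the numbers coincide with library kind. Elsewhere the deviations of same-numbered libraries correlated between -0.608 and 0.084 in GCERAd over WT, -0.029 and 0.013 in GCERAdT over TRACK and -0.090 and 0.049 in TRACK over WT.

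Reversed values were as follows. Abcc5 was 0.10 in kind A, 0.05 with GCERAd 1 to 3 only and -0.06 to 0.03 without single libraries in GCERAd over WT. In GCERAdT over TRACK, Abcb1b was -0.01 with no minimum, -0.15 in kind B and -0.09 to 0.09 without single libraries, Abcc1 was -0.02 in kind B, Abcc3 was 0.13 with the block and -0.40 to 0.02 without single libraries, and Abcb1a was -0.37 to 0.18 without single libraries. In TRACK over WT, Abcc5 was 0.03 with the block and -0.20 to 0.06 without single libraries, Abcg2 was -0.06 in kind B, Abcc1 was -0.03 with summed repeats and -0.06 to 0.08 without single libraries, and Abcb1b was -0.14 to 0.04 without single libraries. In GCERAdT over GCERAd, Abcc4 was -0.07 in kind B, and Abcc5 was 0.01 with summed repeats and -0.10 to 0.03 without single libraries. In the difference between contrasts Abcc5 was -0.05 with GCERAd 1 to 3 only and -0.06 to 0.19 without single libraries. Library kind as a covariate was not run where TRACK entered, since TRACK held kind B only. With the possible repeat libraries summed, 7 exporters were called in GCERAd over WT, 5 in TRACK over WT, 4 in GCERAdT over GCERAd and 5 in the difference between contrasts, where Abcb1a was lost from the last 2. Beside these, 2760 of 11586 genes were called in GCERAd over WT. In each of these comparisons the number of genes called stayed within 1.5 times that with all libraries kept apart. Counts summed over a group were lowest for Abcc6 in TRACK (495) and Abcc3 in GCERAd (790).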
